A study of Mus musculus with 21 samples.

Results

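Ribosomal protein genes encode the protein part of the cytosolic ribosome, and their RNA was followed here in 7 groups of mouse breast cancer cells. The genes were taken by name: protein-coding genes whose symbol is Rps or Rpl with a number, optionally ending in a, x or l, together with Rpsa and the stalk genes Rplp0, Rplp1 and Rplp2. This gave 80 genes among 55573 in the table, of which 31 belong to the small subunit, 46 to the large subunit and 3 to the stalk of the large subunit. The naming rule uses no expression value, but the members were chosen with earlier results of these data known.

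The ribosome joins a small subunit, which reads the mRNA, to a large subunit, which forms the peptide bond. Each protein is needed in about equal amount, and the genes are among the most highly expressed in growing cells. Their mRNAs typically begin with a run of C and T bases, the terminal oligopyrimidine tract, through which mTORC1 signalling and the RNA-binding protein LARP1 control their translation and stability. ZBTB18 is a zinc finger transcription factor that represses many of its targets.

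All cells derived from E0771, an established mouse mammary tumour line, and carried GFP. The groups, with 3 libraries each, were untreated parental cells (E0771GFP), the same cells with an empty vector (EV), cells overexpressing ZBTB18, ZBTB18-overexpressing cells with a doxycycline-inducible TGFBR2, the ligand-binding TGF-β receptor, given doxycycline (1 mg/mL as labelled) with either vehicle or TGF-β1 (2 ng/mL), and the lines M11 and M12 (M11GFP and M12GFP), recovered from spontaneous lung metastases of E0771GFP cells. Each vector or metastasis is represented by 1 cell line, so a difference between groups cannot be told apart from a difference between those lines. The labels do not say whether the replicates were separate cultures, and p-values measure the spread between these libraries, which may be technical. Each gene's spread was estimated from all 21 libraries together, so a p-value does not rest on the spread of the compared groups alone.

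Libraries held 24208569 to 90518872 counts. Zbtb18 stood at 113 ± 9.64 CPM (counts scaled to library size) in the ZBTB18-overexpressing cells against 25.1 ± 0.91 in EV, and Tgfbr2 at 588 ± 32.7 in the vehicle group against 1.74 ± 0.253 in the overexpressing cells without the receptor vector (SD, n = 3). Among epithelial markers Krt8 was present in all libraries (80.9 to 272 TPM, scaled to library size and transcript length), while Krt18, Epcam and Cdh1 did not exceed 4.33 TPM. The mesenchymal marker Vim reached 1920.2 to 5883 TPM, while Fn1 did not exceed 0.22 TPM. Defining markers of immune cells (Ptprc, Cd3e) and lung epithelium (Sftpc, Scgb1a1) did not exceed 0.07 TPM, but other listed markers did: Cd68 reached 94.6 TPM, Coro1a 15.6, Cd14 4.89 and Lyz2 3.8, and Ager reached 1.35. Among the fibroblast markers Gsn and Col3a1 reached 507 and 314 TPM, Pdgfra 42.8 and Pdgfrb 13, while Dcn and Lum did not exceed 0.07 TPM. Parental replicate 1 stood apart in carrying 14% of its counts on Gm42418, a gene overlapping ribosomal RNA sequence.

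Of the 80 genes, 77 passed the filter on low counts and were tested. Each of these had at least 2383 counts in every library, so none passed through 1 group only. Their mean TPM, a unit scaled for transcript length that allows genes to be compared, ran from 436 to 6836 with a median of 2414, against a median of 13.5 over the 15432 genes tested. The highest were Rps18, a small subunit protein (mean 6836 TPM, 5678 to 9466 over the 21 libraries), the stalk gene Rplp1 (5806 TPM), the large subunit gene Rpl32 (5765 TPM) and Rpl10 (5460.4 TPM), whose protein joins the large subunit late in its assembly. The lowest were Rps27l (436 TPM, 269 to 693), Rpl39 (738 TPM), whose protein sits in the peptide exit tunnel, Rpl28 (934 TPM) and Rpl21 (965 TPM). The 3 genes left out of the tests are tissue-restricted paralogs. Rpl3l, known from muscle, had 41 counts over all libraries and at most 0.43 TPM, Rpl39l had 3 counts, and Rpl10l, known from testis, had 0, while their widely expressed partners Rpl3, Rpl39 and Rpl10 had means of 2072, 738 and 5460.4 TPM.

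Transcription starts are shown for some of the members that the comparisons turn on. Rps24, Rpl13a, Rpl15 and Rpl41 are among those that fell or differed most between groups. Rps23, Rplp2 and Rps27l are described in the ZBTB18 and receptor comparisons. Rps18 is the gene with the highest TPM, and Rps27 is the partner of Rps27l. Rpl17, which fell most against parental cells, is not shown, nor are Rps14, Rpl32 and Rpl23a. Each line holds the 40 bases before the RefSeq start and the 20 bases from it on (build GRCm38.p6), 5′ to 3′ on the gene's strand. Capitals mark the longest unbroken run of C and T within 20 bases of the start. Rps24 and Rps27l had 2 windows each with different listed starts, and the window shown was chosen by the length of this run.
Rps24, chr14:24490638-24490697, plus strand: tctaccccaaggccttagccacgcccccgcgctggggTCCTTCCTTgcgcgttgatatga
Rpl13a, chr7:45128726-45128785, minus strand: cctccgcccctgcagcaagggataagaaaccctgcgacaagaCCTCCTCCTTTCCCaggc
Rpl15, chr14:18270967-18271026, minus strand: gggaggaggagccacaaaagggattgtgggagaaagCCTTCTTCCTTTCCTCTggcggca
Rpl41, chr10:128549149-128549208, minus strand: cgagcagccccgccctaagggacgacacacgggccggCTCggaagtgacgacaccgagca
Rps23, chr13:90923082-90923141, plus strand: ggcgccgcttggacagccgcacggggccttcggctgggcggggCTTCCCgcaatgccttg
Rplp2, chr7:141447611-141447670, plus strand: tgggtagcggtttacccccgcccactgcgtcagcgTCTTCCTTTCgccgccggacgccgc
Rps27l, chr9:66946046-66946105, plus strand: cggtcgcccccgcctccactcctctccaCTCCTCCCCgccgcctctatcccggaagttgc
Rps18, chr17:33955646-33955705, minus strand: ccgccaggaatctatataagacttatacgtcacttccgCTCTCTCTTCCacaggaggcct
Rps27, chr3:90213629-90213688, minus strand: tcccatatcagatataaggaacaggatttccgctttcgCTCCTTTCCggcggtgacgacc

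The run was 17 bases long in Rpl15, 14 in Rpl13a, 11 in Rps18 and 3 in Rpl41. RefSeq promoter windows of 300 bases, with 250 before the start and 50 after it, matched 60 of the 80 genes by symbol, 57 of them tested. Over these 57 genes the median of the longest C and T run within 20 bases of the start was 8 bases, against 5 over the 27025 genes with a window (where a gene had several windows, the longest run was taken). The letters CTTTCC on the gene's strand in the same 40 bases were present in 10 of 57 (17.5%) against 2.3% of all genes. In the whole window on either strand, CTTTCC was present in 30 of 57 (52.6%, all genes 29.3%), and CCGGAAG, the core bound by ETS factors, in 24 of 57 (42.1%, all genes 9.93%). These matches describe the letters in the windows and are not evidence of binding.

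By group mean, the module took the largest part of the library in parental cells and the smallest in EV and ZBTB18-overexpressing cells. The 80 genes held 9.89, 11.6 and 8.7% of counts in the 3 parental libraries, 6.39, 6.78 and 6.38% in EV, 6.74, 6.2 and 6.06% with ZBTB18 overexpression, 7.23, 7.65 and 7.21% in the vehicle group, 7.21, 7.37 and 6.91% with TGF-β1, 8.66, 9.26 and 7.01% in M11 and 7.6, 8.5 and 7.5% in M12. In bulk RNA, fewer cells with a high level and less RNA per cell cannot be told apart. Every EV, overexpression, vehicle and TGF-β1 library lay below every parental library. The M11 libraries overlapped the parental ones, and all M12 libraries lay below all parental ones. With counts on Gm42418 and mitochondrial genes set aside, the module took 8.94 to 11.9% in parental cells, 6.44 to 6.86% in EV, 6.12 to 6.81% with overexpression, 7.26 to 7.69% with vehicle, 6.95 to 7.41% with TGF-β1, 7.14 to 9.49% in M11 and 7.69 to 8.73% in M12. Mitochondrially encoded genes held 2.41 to 2.56% of counts in parental cells, 1.8 to 3.42% in M11, 2.42 to 2.63% in M12, 0.861 to 1.07% in EV, 1 to 1.09% with overexpression, 0.586 to 0.734% with vehicle and 0.525 to 0.68% with TGF-β1, and their part in the module's differences was not tested. Ordered by group mean, the neighbours parental and M11, M11 and M12, M12 and vehicle, vehicle and TGF-β1, and EV and overexpression overlapped, and only TGF-β1 (6.91 to 7.37%) and EV (6.38 to 6.78%) were apart. As a share of TPM, where short transcripts weigh more, the module took 22 to 26.6% in parental cells, 19.1 to 19.7% in EV, 18 to 19.3% with overexpression, 21 to 21.8% with vehicle, 20.4 to 21.4% with TGF-β1, 19.3 to 23.8% in M11 and 19.6 to 21.6% in M12. In TPM the highest vehicle library (21.8%) was just below the lowest parental one (22%).

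**Figure D1:**
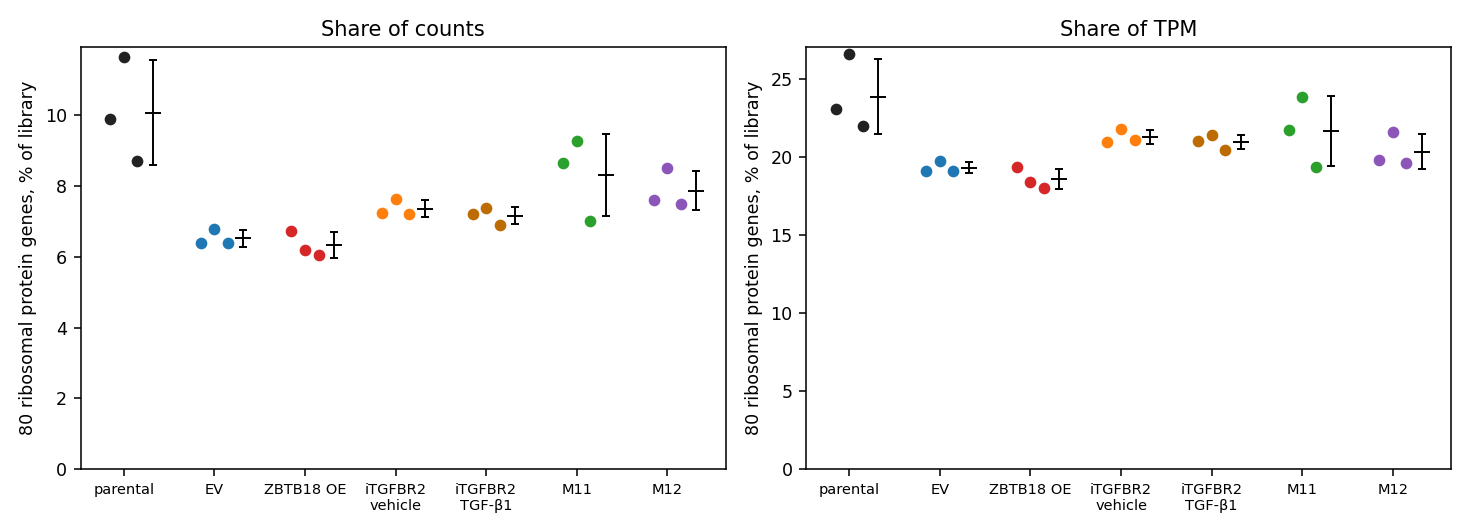
Share of the library taken by the 80 ribosomal protein genes, as % of counts (left) and % of TPM (right), in 7 groups. Points are single libraries and the bar beside them is the mean ± SD (n = 3): the parental mean is the highest on both scales, with libraries at 8.7 to 11.6% of counts that overlap M11, and the ZBTB18-overexpressing mean is the lowest, with libraries at 6.06 to 6.74% that overlap EV.

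The ratio of small to large subunit TPM was 0.835 to 0.842 in EV, 0.789 to 0.799 with ZBTB18 overexpression, 0.78 to 0.785 with vehicle and 0.774 to 0.778 with TGF-β1. All EV libraries lay above all overexpression libraries, all overexpression libraries above all vehicle libraries, and all vehicle libraries above all TGF-β1 libraries. It was 0.808 to 0.838 in parental cells, 0.815 to 0.873 in M11 and 0.798 to 0.83 in M12, which overlapped. The differences are small, and no test was made of this ratio.

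By group mean CPM, parental cells held the highest level of 67 of the 77 genes, and the lowest level was in ZBTB18-overexpressing cells for 38 and in EV for 26. By group mean TPM, parental cells were highest for 44 and the vehicle group for 17. The ratio of the highest to the lowest group mean CPM had a median of 1.74 and ran from 1.17 for Rpl7 to 4.12 for Rpl17. In the test of any difference between the 7 groups (edgeR quasi-likelihood, Benjamini-Hochberg over all genes), 75 of 77 genes passed the threshold of 0.05, a share near that of all genes tested (92.7%). In the test on log2(TPM + 1) 66 passed (all genes 89%), and with effective length offsets 75 (91.2%). With edgeR on counts, Rpl30 (adjusted p = 0.139) and Rpl7 (adjusted p = 0.32) did not. The smallest p-values were those of Rpl41 (adjusted p = 3.37e-10), Rps24 (1.16e-09), Rpl15 (3.16e-09) and Rpl17 (3.51e-09).

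In EV cells against the parental line, 70 of the 77 genes fell (27 of 31 small subunit, 40 of 43 large subunit and all 3 stalk genes) and 0 rose (all genes tested: 29% lower, 28.9% higher). The median log2 difference of the module was -0.76, against -0.02 for all genes, and the single genes ran from -1.66 to 0.12. The call of 0 higher came from edgeR; 0 genes were higher at an unadjusted p under 0.05, 0 with DESeq2 and 6 with limma on log2(TPM + 1). In 69 genes every EV library lay below every parental library (29.9% of all genes tested), and in 0 above (31.2%).

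Rpl17, whose protein lines the peptide exit tunnel, stood at 1651, 1540.0 and 967 CPM in parental replicates 1, 2 and 3 and at 434, 477 and 404 CPM in EV. The EV libraries were tightly grouped and far below the lowest parental library, replicate 3. The log2 difference was -1.66 (SE 0.169, adjusted p = 1.83e-07). Rps24, a small subunit gene mutated in Diamond-Blackfan anaemia, fell from 2317, 2224 and 1603 CPM to 730.1, 782 and 687 CPM, a log2 difference of -1.48 (SE 0.144, adjusted p = 7.52e-08). Rpl13a, whose protein can leave the ribosome to repress translation of inflammatory mRNAs, fell from 2072, 2083 and 1291 CPM to 701, 701 and 696 CPM, with a difference of -1.38 (SE 0.161, adjusted p = 7.86e-07) on the log2 scale. In all 3 genes parental replicate 3 was the lowest parental library and the groups did not overlap. Rpl41, which encodes the smallest ribosomal protein, fell from 1761, 2015 and 1365 to 679, 697 and 682 CPM, with a difference of -1.32 (SE 0.129, adjusted p = 7.98e-08). The EV libraries of Rpl41 differed from each other by far less than the parental ones.

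The 7 genes that did not pass were Rpl30, Rpl7, Rpl4, Rps2, Rps23, Rps29 and Rps4x. Rps23, whose protein monitors decoding, stood at 734, 768 and 620.1 CPM in parental and 754, 759 and 749 CPM in EV libraries, which overlapped, with a log2 difference of 0.093 (SE 0.0988, adjusted p = 0.431). Rps2, at the mRNA entry channel, stood at 2855, 2777 and 2417 CPM and 2538, 2596 and 2473 CPM, also overlapping (-0.081 on the log2 scale). Rpl4 had a log2 difference of 0.12, the highest of the module. Parental replicates varied more than EV replicates, and the number that fell was 66, 69 and 73 without parental replicate 1, 2 and 3 in turn.

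On the TPM scale the same comparison gave 48 lower and 6 higher (limma on log2(TPM + 1), all genes tested: 12.1% lower, 44% higher), so that the split between higher and lower calls moved from 0 and 70 to 6 and 48. The median of all genes was 0.21 on this scale and that of the module -0.33, a gap between the medians of -0.54 in TPM and -0.74 with TMM. Of the 70 genes lower with TMM, 48 were lower and 1, Rpl29, was higher in TPM, and 21 did not pass. Rpl29 had a log2 difference of -0.24 with TMM and 0.20 in TPM. The other 5 genes called higher in TPM were Rps29 (0.51), Rpl4 (0.47), Rps23 (0.41), Rps2 (0.20) and Rps4x (0.19), none of which passed with TMM. Rpl17, Rps24 and Rpl13a remained lower in TPM, at -1.21, -0.97 and -0.92 on the log2 scale. After each library's TPM were divided by its median ratio over all genes tested, 69 genes were lower, 0 were higher and the module median was -0.66.

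**Figure D2:**
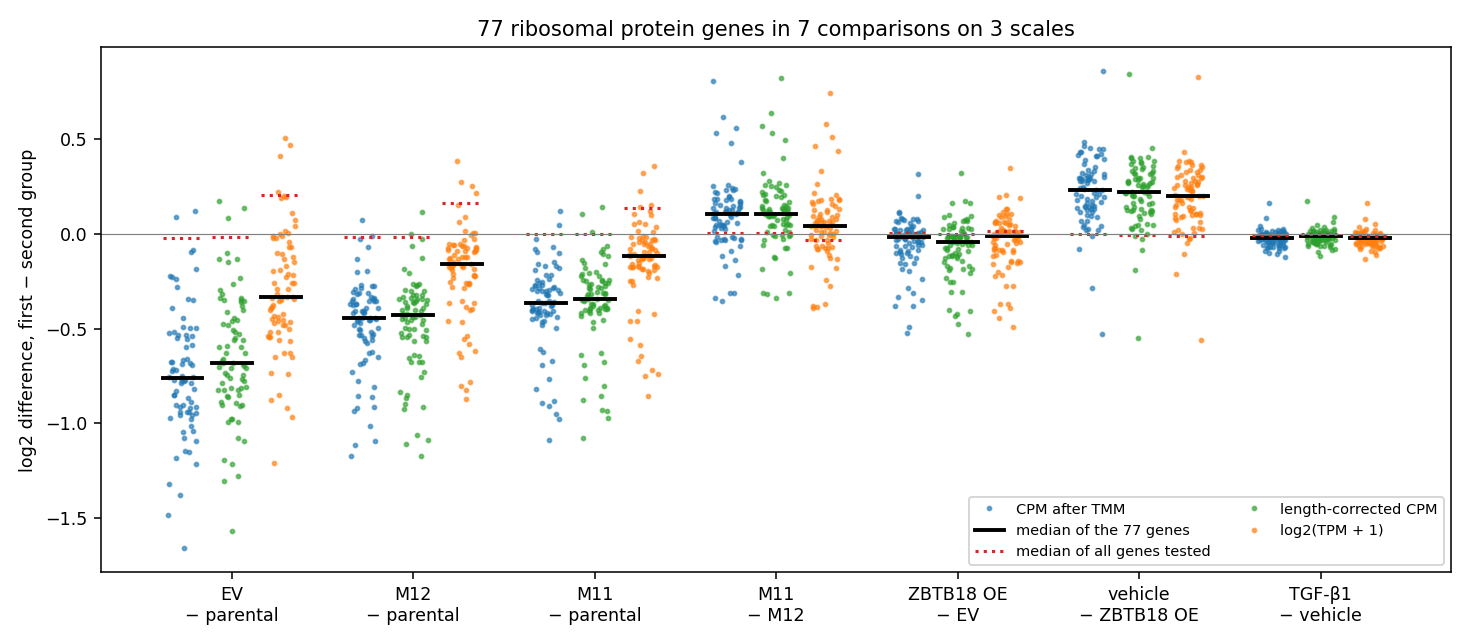
Log2 difference (first minus second group) of each of the 77 tested ribosomal protein genes in 7 comparisons, on 3 scales: CPM after TMM (blue), length-corrected CPM (green) and log2(TPM + 1) (orange). Black bars are medians of the 77 genes and red dotted bars medians of all 15432 genes tested: in EV minus parental the module median is -0.76 with TMM and -0.33 in TPM, where the median of all genes is 0.21.

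Transcript length moved with these results. The mean effective length of the 77 genes (the length RSEM uses after allowing for fragment size) ran from 146 to 1213 bases with a median of 445, against a median of 1952 over all genes tested. The median effective length of the 77 genes was 425 to 426 bases in EV libraries and 444 to 459 in parental libraries. Genes outside the module also differed by length in EV against parental: those under 500 bases had a median log2 difference of -0.64 (593 of 913 lower), those of 500 to 1000 bases -0.29, those of 1000 to 2000 bases -0.058, those of 2000 to 4000 bases 0.18, and those over 4000 bases 0.4 (1131 of 1712 higher). In the bins the module occupies, its median was -0.82 under 500 bases (40 of 42 genes lower) and -0.74 at 500 to 1000 bases (28 of 32 lower). Genes outside the module within its range of lengths, with a mean of at least 99.954 CPM, had a median of -0.24, with 201 of 379 lower. With RSEM's effective lengths as offsets in edgeR, 69 of 77 genes were lower (all genes 26.8%), 0 were higher, and the module median was -0.68, while the median of the other genes under 500 bases was -0.41. These bins were set after the values were seen, and the part of length in the module's difference was not tested.

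**Figure D3:**
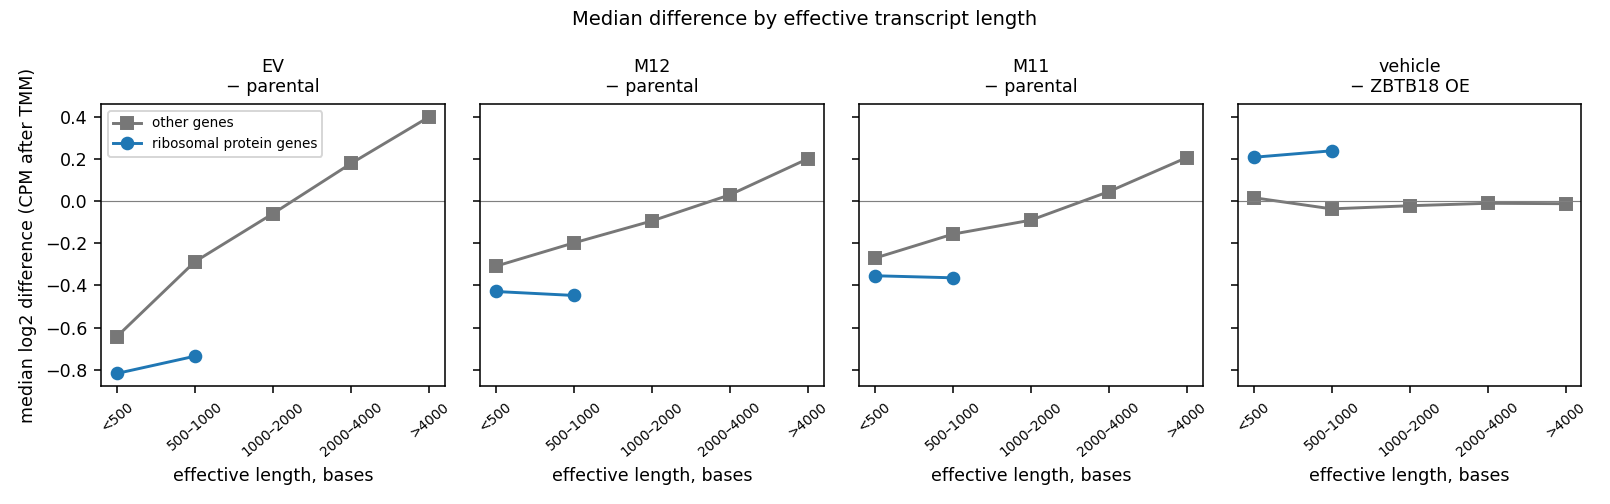
Median log2 difference (CPM after TMM) by effective transcript length for ribosomal protein genes (blue, 42 genes under 500 and 32 at 500 to 1000 bases) and for all other tested genes (grey), in 4 comparisons. Against parental cells the other genes run from negative in short to positive in long transcripts (-0.64 to 0.4 in EV), and the module lies below them. In vehicle minus ZBTB18 overexpression the other genes lie between -0.036 and 0.017 in all bins, and the module lies above.

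The metastasis lines were also compared with the parental line, using the same 3 parental libraries as the EV comparison, so these comparisons are not independent of each other. In M12, 68 of 77 genes fell and 0 rose (all genes tested: 25.2% lower, 24.9% higher), with a module median of -0.44 against -0.014 for all genes. In 53 genes the groups did not overlap (23.5% of all genes tested were below without overlap), and 0 were above (24.3%). In M11, 54 fell and 0 rose (all genes: 20% lower, 20.8% higher), with a median of -0.36 against -0.00059, and 17 were below (19.6% of all genes) and 0 above (22%) without overlap. For the 0 higher of edgeR in each, 0 genes were higher at an unadjusted p under 0.05 and with DESeq2, and 3 with limma on log2(TPM + 1). Marker sums also differed between these groups. The 10 blood and immune markers summed to 7.82 to 12.7 TPM in parental cells, 14.9 to 22.2 in M11 and 37.1 to 116 in M12, with Cd3e and Hbb-bs at 0 in all libraries and 4 of 10 above 1 TPM in any library. The 6 fibroblast markers summed to 260.3 to 272 TPM in parental cells, 527 to 736 in M11 and 545 to 595 in M12, with 4 of 6 above 1 TPM. The same sum was 451 to 489.5 TPM in EV and 243 to 293 with ZBTB18 overexpression. The part of these markers in the module's differences was not tested.

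Rpl17 stood at 724, 759 and 471 CPM in M11 and 589.7, 681 and 572 CPM in M12, all below the lowest parental value of 967 CPM. Its log2 difference from parental was -1.09 (SE 0.166, adjusted p = 2.29e-05) in M11 and -1.17 (SE 0.166, adjusted p = 6.49e-06) in M12. Rps14, a small subunit gene whose partial loss underlies the anaemia of a form of myelodysplastic syndrome, stood at 1553, 1599 and 1059.8 CPM in parental, 785, 842 and 550.2 in M11 and 642, 712 and 592 in M12, without overlap with the parental libraries. Its differences were -0.95 (adjusted p = 1.58e-05) and -1.11 (adjusted p = 1.51e-06). Rpl15, a large subunit gene, fell from 1153, 1240.2 and 874 CPM in parental cells to 599, 589 and 470.1 in M11, a difference of -0.98 (SE 0.108, adjusted p = 3.04e-07). Rpl32 fell from 2786, 2726 and 1866 CPM to 1169.7, 1203 and 1083 in M12 (log2 difference -1.09, SE 0.144, adjusted p = 1.99e-06), while its M11 libraries, at 2328, 2242 and 1493, overlapped the parental ones.

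Single libraries decided how many genes passed in M11. The 54 that fell became 24 without parental replicate 1, 22 without parental replicate 2 and 22 without M11 replicate 3, the M11 library with the lowest module share, and 68 without parental replicate 3. For M12 the number was 54, 58 and 72 without parental replicates 1, 2 and 3. On log2(TPM + 1), 14 genes were lower and 3 higher in M11 (all genes: 8.34% lower, 28.6% higher), and 26 lower and 3 higher in M12 (10.1% and 36%). The medians of all genes were 0.14 and 0.17 on that scale, and those of the module -0.12 and -0.16. The genes higher in TPM were Rpl31, Rps29 and Rpl37a in M11 (0.32, 0.23 and 0.36 on the log2 scale) and Rpl31, Rps29 and Rpl7 in M12 (0.39, 0.27 and 0.26), and none of these differed with TMM. With effective length offsets 43 were lower in M11 (all genes 18.9%) and 67 in M12 (24%), and 0 were higher in either (19.4% and 24%). Other genes under 500 bases had medians of -0.27 in M11 and -0.31 in M12, and module genes of that length -0.35 and -0.43.

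Between the metastasis lines, 7 genes were higher and 2 lower in M11 than in M12 (all genes tested: 17.7% and 17.8%), shares below those of all genes, and the module median was 0.11. With the replicate number as a block 9 genes were higher and 4 lower. Rpl32 stood at 2328, 2242 and 1493 CPM in M11 and 1169.7, 1203 and 1083 in M12, without overlap, a log2 difference of 0.81 (SE 0.143, adjusted p = 0.000139). Rpl13 stood at 2026, 2340.1 and 1879.9 CPM and 1367, 1523 and 1342 (log2 difference 0.56, SE 0.126, adjusted p = 0.00135). Both encode large subunit proteins, and in each every M11 library was above every M12 library. Lower in M11 were Rpl6, at 1145, 1212 and 1004 CPM against 1388, 1506 and 1389.9 (log2 difference -0.35, SE 0.0935, adjusted p = 0.00542), and Rpl21, at 511, 585 and 491 against 645, 654 and 670.1 (log2 difference -0.31, SE 0.089, adjusted p = 0.00879). Rps12, Rps15, Rps9 and Rps2 were also higher in M11. Every library of 1 line lay above those of the other for 9 genes higher and 3 lower in M11 (20% of all genes each way). On log2(TPM + 1) 8 were higher and 6 lower (all genes 11.8% and 17.5%), and with effective length offsets 8 and 2 (16.5% and 16.8%). Without M11 replicate 3, the number higher was 20, and without M11 replicate 2 the number lower was 4.

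The genes that differed between M11 and M12 lay on chromosomes whose other genes differed in the same direction. Rpl6 (chr5:121204481-121209241, mm10) and Rpl21 (chr5:146832890-146837032) are on chromosome 5, where 990 other tested genes had a median log2 difference of -0.33. Rpl13 (chr8:123102350-123105244) is on chromosome 8 (median of other genes 0.31), Rpl32 (chr6:115805505-115808747) on chromosome 6 (0.32) and Rps12 and Rps15 on chromosome 10 (0.24). The sign matched the chromosome's median for 9 of the 9 genes called, although Rps9 (0.027) and Rps2 (0.0079) lie on chromosomes with medians near 0. Across the 77 genes Pearson's r between a gene's difference and its chromosome's median was 0.744 (Spearman's rho 0.51), a description in which genes on 1 chromosome share a value. With ZBTB18 overexpression against EV the sign also matched for 6 of the 6 genes called (r 0.694, Spearman's rho 0.637). The match was less complete in the other comparisons with calls. It held for 40 of 70 genes called in EV against parental cells (r 0.173) and 24 of 54 in M11 against parental (r 0.372). It held for 39 of 68 in M12 against parental (r 0.637) and 19 of 25 in vehicle against overexpression (r 0.186). The chromosomes' part in these differences was not tested.

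**Figure D4:**
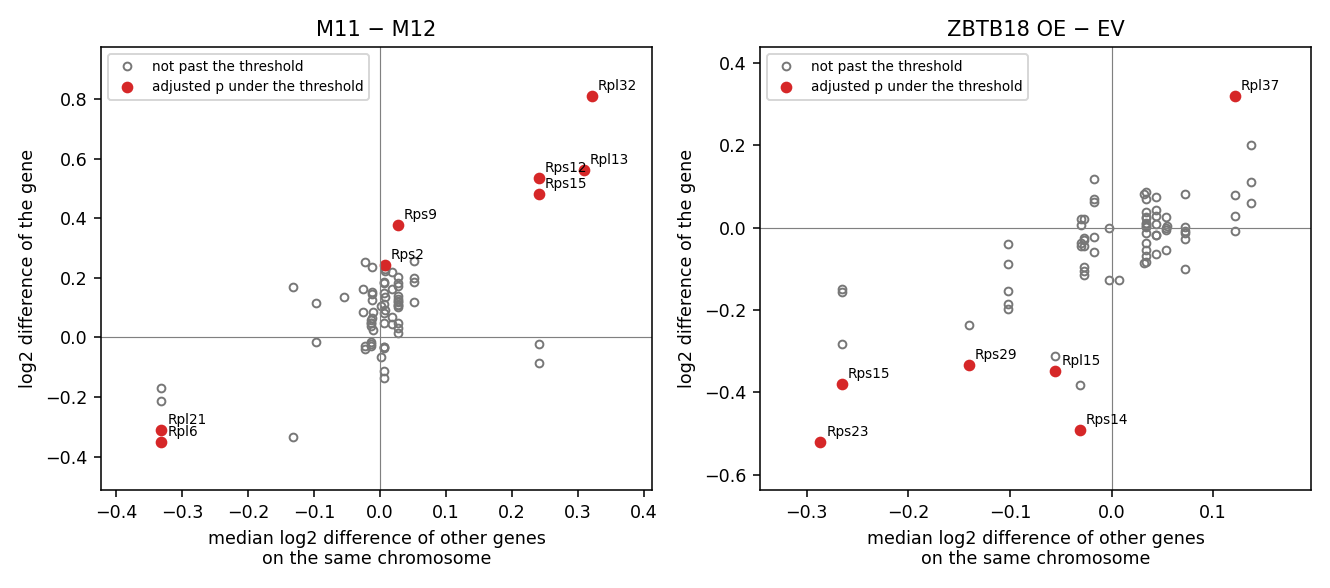
Log2 difference of 76 of the 77 ribosomal protein genes tested against the median log2 difference of the other tested genes on its chromosome (CPM after TMM), for M11 minus M12 (left) and ZBTB18 overexpression minus EV (right). Red points passed the threshold and are named: all 8 on the left and all 6 on the right have the sign of their chromosome's median.

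With ZBTB18 overexpression against EV, 5 of 77 genes fell and 1 rose (all genes tested: 14.5% lower, 14% higher), shares below those of all genes, and the module median was -0.017. Rps23 stood at 754, 759 and 749 CPM in EV and 572, 520.4 and 486 with overexpression, without overlap, a log2 difference of -0.52 (SE 0.0991, adjusted p = 0.000397). Rps14 stood at 759.9, 839.8 and 712 and 582, 545 and 518 CPM (log2 difference -0.49, SE 0.142, adjusted p = 0.012) and Rps15, whose protein reaches toward the decoding site, at 727, 786 and 739 and 656, 550.0 and 526 (log2 difference -0.38, SE 0.137, adjusted p = 0.043). In each, all overexpression libraries were below all EV libraries. Rps29 and Rpl15 also fell, by 0.33 and 0.35 on the log2 scale. Rpl37, a large subunit gene, rose from 373, 429 and 364 to 538, 471 and 446 CPM (log2 difference 0.32, SE 0.115, adjusted p = 0.0418). Of the 5 that fell, 4 encode small subunit proteins. The counts fell when single libraries were left out: leaving out EV replicate 2, or replicate 3 of the overexpressing cells, gave 1 lower, and leaving out their replicate 2 gave 2. The number higher was 0 when EV replicate 1 or 3, or replicate 1 or 2 of the overexpressing cells, was left out.

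On log2(TPM + 1), 7 genes were lower and 1 higher (9.21% and 10.8% of all genes), with Rpl17 (-0.37) and Rps24 (-0.37) added. With effective length offsets 6 were lower and 1 higher (13.8% and 13%). All overexpression libraries lay below all EV libraries in 11 genes (24.7% of all genes) and above in 5 (24.9%). Other genes on the chromosome of Rps23 (chr13:90922958-90924950) had a median of -0.29, those on that of Rps15 (chr10:80292453-80294114) -0.27, those on that of Rpl37 (chr15:5116645-5119140) 0.12, and those on that of Rps14 -0.031. Across the 77 genes Pearson's r with the chromosome's median was 0.694 (Spearman's rho 0.637), again as a description, and its part was not tested.

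Cells with the inducible receptor, given doxycycline and vehicle, differed from ZBTB18-overexpressing cells without it. Here 23 of 77 genes rose and 2 fell (all genes tested: 19.5% higher, 19.3% lower), and the module median was 0.23 against -0.00094 for all genes. Of those that rose, 9 were small subunit, 13 large subunit and 1 a stalk gene. In 51 genes every vehicle library lay above every overexpression library (28.3% of all genes tested) and in 2 below (28.9%), and 73 of 77 differences were above 0. As log2(TPM + 1), 32 rose and 2 fell (all genes 14.3% and 14.4%) with a module median of 0.2, and with effective length offsets 20 rose and 1 fell (18.2% and 18.4%). Other genes of the module's lengths had a median of -0.022 here.

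Rpl23a, whose protein sits at the exit of the peptide tunnel where the signal recognition particle docks, stood at 1051, 1041 and 996 CPM with vehicle and 635, 543 and 522 CPM with overexpression alone, a log2 difference of 0.86 (SE 0.123, adjusted p = 1.11e-05). Its vehicle libraries were far above the overexpression and EV libraries (557, 579.7 and 531 CPM in EV) and its TGF-β1 libraries (1023, 1065 and 975 CPM) were at the vehicle level. The other 1179 tested genes of its chromosome (Rpl23a is at chr11:78180932-78183584) had a median of 0.012. Next were Rplp2, a stalk gene that helps recruit elongation factors, at 711, 749 and 731 against 572, 490.4 and 501 CPM (log2 difference 0.49, SE 0.0949, adjusted p = 0.000347), and Rpl22, at 455, 447 and 424 against 351, 311 and 299 CPM (log2 difference 0.46, SE 0.106, adjusted p = 0.00146), both without overlap. Rps27l, a paralog of Rps27 that p53 can induce, fell from 93.4, 80.9 and 72 CPM to 57.5, 56.8 and 56.3 (log2 difference -0.53, SE 0.174, adjusted p = 0.0212), while its partner Rps27 stood at 442, 408 and 371 and 469, 531 and 492 CPM. Rps2 fell from 2832, 2612 and 2610.3 to 2165, 2262 and 2193 CPM (log2 difference -0.28, SE 0.0842, adjusted p = 0.011).

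The number that rose depended on single libraries: leaving out replicate 3 of the overexpressing cells gave 8, their replicate 2 gave 12 and vehicle replicate 2 gave 13, and no omission gave more than 24. Leaving out replicate 1 of the overexpressing cells gave 0 lower. The overexpression line is shared by this comparison and that with EV. The receptor vector, doxycycline and the separate derivation of the line cannot be told apart in this comparison.

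Adding TGF-β1 to the receptor cells gave no call among the 77 genes: 0 rose and 0 fell with edgeR (all genes tested: 1.26% higher, 0.654% lower), the smallest adjusted p was 0.757, 0 genes had an unadjusted p under 0.05, and 0 were called by DESeq2 or by limma on log2(TPM + 1) (all genes 0.454% higher, 0.272% lower). Effective length offsets also gave 0 and 0 (0.946% and 0.363%), and 1 gene was above and 1 below without overlap (14.1% and 13.6%). With the replicate number as a block the counts were 0 and 0. The module median was -0.019, and single genes ran from -0.12 to 0.17 with SEs of 0.0797 to 0.174. These SEs use the spread over all 21 libraries, not that of the receptor libraries alone. Rpl23a stood at 1029.5 ± 29.2 CPM with vehicle and 1021 ± 44.8 with TGF-β1, Rpl32 at 1263 ± 44.7 and 1264 ± 57.3, and Rpsa, also known as a laminin receptor, at 2318 ± 49.4 and 2306 ± 66 (SD, n = 3).

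**Figure D5:**
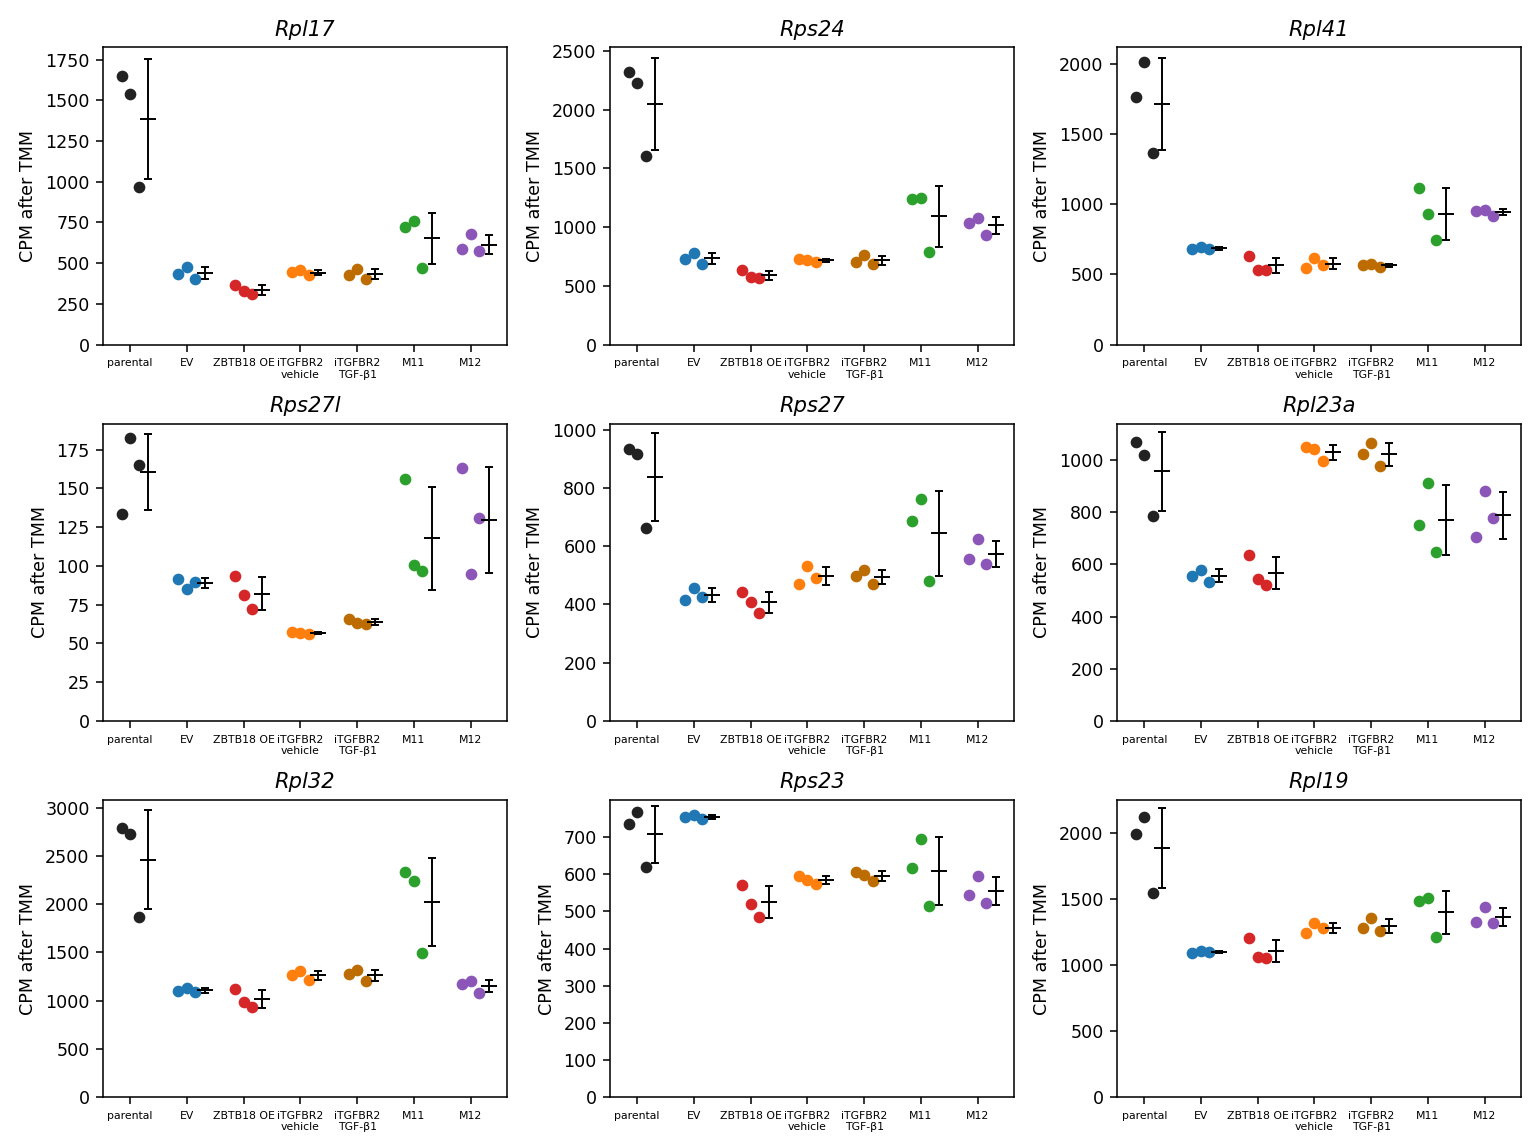
CPM after TMM of 9 ribosomal protein genes in each library of 7 groups, with the mean ± SD (n = 3) beside the points. By group mean, Rpl17, Rps24, Rpl41 and Rpl32 are highest in parental cells, and Rpl32 is higher in M11 than in M12. Rpl23a is high in both receptor groups, Rps23 is lower with ZBTB18 overexpression than in EV, and Rpl19 shows the common pattern of the module.

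To see which genes departed from the module as a whole, each gene's log2 TPM was taken relative to the median member of its library. The departures were largest in Rpl17, Rps27l, Rpl41 and Rps24, with SDs over the 7 group means of 0.438, 0.415, 0.386 and 0.377. Rpl17 lay -0.096 from the median member in parental cells, -1.04 in EV, -1.39 with overexpression, -1.24 with vehicle, -0.79 in M11 and -0.84 in M12. Rpl41 lay at 1.29 in parental cells, 0.81 in M11, 0.84 in M12, 0.71 in EV and 0.21 with vehicle. Rps24 lay at 1.09 in parental cells and 0.038 with overexpression. These 3 genes were also higher in parental cells relative to the rest of the module, whatever the scaling of the library. By group mean Rps27l was lowest in the receptor groups, at -3.24 and -3.04, and lay between -2.46 and -2.19 elsewhere. Its replicates spread widely in parental cells, M11 and M12 (SDs of 0.38, 0.398 and 0.476), and less in the other groups (0.0387 to 0.0851). Rpl23a lay at 0.67 and 0.68 in the receptor groups and between 0.023 and 0.18 elsewhere. The steadiest genes were Rpl19, Rpl7a, Rpl24 and Rpl3, with SDs of 0.029, 0.0429, 0.0461 and 0.0592.

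Of the stalk and the laminin receptor gene, Rplp0, the stalk base, stood at 4141 ± 578 CPM in parental cells, 2518 ± 73.5 in EV, 2449.7 ± 124 with overexpression, 2623 ± 100.2 with vehicle, 2639 ± 41.8 with TGF-β1, 3221 ± 306 in M11 and 3621 ± 157 in M12 (SD, n = 3). Its EV level was below parental by a log2 difference of -0.72 (SE 0.1, adjusted p = 5.97e-06). Rplp1 stood at 1642 ± 174 CPM in parental cells and 1131 ± 33.5 in EV, and Rplp2 at 715 ± 79.8 and 526 ± 30.8. Rpsa stood at 2761 ± 469.9 CPM in parental cells, 2175 ± 41.3 in EV and 2037 ± 117 with overexpression, a difference of -0.34 (SE 0.112, adjusted p = 0.0124) between EV and parental cells. On log2(TPM + 1) Rplp0 stayed lower in EV (-0.43), while Rplp1 (-0.022), Rplp2 (-0.19) and Rpsa (-0.099) did not pass.

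Other genes of the translation machinery did not all move with the module. Counts and fold changes here are from TMM unless TPM is named. In EV against parental cells, where 28.9% of all genes tested were higher and 29% lower, 7 of 8 ribosomal protein genes whose symbols fall outside the pattern fell and 0 rose (median -0.7 with TMM, -0.32 in TPM), among them Fau, which encodes a small subunit protein fused to a ubiquitin-like domain (log2 difference -1.26, SE 0.121, adjusted p = 6.89e-08), and Rpl22l1, the paralog of Rpl22 (log2 difference -1.30, SE 0.197, adjusted p = 2.59e-05). All 11 small nucleolar RNA host genes fell (median -1.22 with TMM, -0.57 in TPM), including Zfas1 (log2 difference -1.91, SE 0.296, adjusted p = 5.78e-05) and Snhg1 (log2 difference -1.89, SE 0.189, adjusted p = 2.79e-07). Of 78 mitochondrial ribosomal protein genes, 48 fell and 3 rose (median -0.32 with TMM, 0.065 in TPM), with Mrpl33 at -1.49. In the other direction, 33 of 60 ribosome biogenesis genes rose and 6 fell (median 0.31 with TMM, 0.54 in TPM), with the nucleolar protein gene Ncl at 1.03 (SE 0.162, adjusted p = 2.17e-05) and Nop10 at -1.04 (SE 0.115, adjusted p = 3.64e-07). Of 37 elongation and initiation factor genes 12 rose and 17 fell (median -0.04 with TMM, 0.33 in TPM), and of 18 genes of RNA polymerase I and its factors 6 rose and 6 fell (median -0.046 with TMM, 0.26 in TPM). Of 24 genes of the mTORC1 and MYC pathways 13 rose and 4 fell (median 0.24 with TMM, 0.49 in TPM). Among these, Larp4b stood at 0.85, Rps6kb2 at -0.76 and Rptor, the scaffold of mTORC1, at 0.69 (SE 0.102, adjusted p = 1.17e-05).

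In M12 against parental cells, where 24.9% of all genes were higher and 25.2% lower, ribosome biogenesis genes numbered 4 higher and 25 lower of 60 (median -0.16 with TMM, 0.1 in TPM), mitochondrial ribosomal protein genes 4 higher and 51 lower of 78 (median -0.29 with TMM, -0.012 in TPM) and small nucleolar RNA host genes 0 higher and 4 lower of 11 (median 0.0031 with TMM, 0.28 in TPM). In M11, where 20.8% of all genes were higher and 20% lower, these were 3 higher and 22 lower (-0.16 with TMM, 0.037 in TPM), 0 higher and 48 lower (-0.3 and -0.092) and 0 higher and 4 lower (-0.3 and -0.044). Gnl3, which encodes the nucleolar protein nucleostemin, stood at -1.08 (SE 0.0741, adjusted p = 1.66e-10) in M12 and -0.88 (SE 0.0738, adjusted p = 5.88e-09) in M11. With ZBTB18 overexpression against EV, 17 of 60 biogenesis genes fell and 1 rose (median -0.15 with TMM, -0.11 in TPM, against 14.5% lower and 14% higher among all genes), with Noc2l at -0.63 (SE 0.123, adjusted p = 0.000501) and Eif6 at -0.61 (SE 0.097, adjusted p = 5.89e-05). In the vehicle group against overexpression, 5 of 11 small nucleolar RNA host genes rose and 1 fell (median 0.41 with TMM, 0.4 in TPM), while 1 of 78 mitochondrial ribosomal protein genes rose and 20 fell (median -0.11 with TMM, -0.17 in TPM), against 19.5% higher and 19.3% lower among all genes. With TGF-β1 0 of 60 biogenesis and 0 of 78 mitochondrial ribosomal protein genes were called, against 1.26% higher and 0.654% lower among all genes. Calls were made in 2 other lists. Of 18 genes of RNA polymerase I and its factors, 2 rose and 0 fell. Of 24 genes of the mTORC1 and MYC pathways, Mlst8 rose (log2 difference 0.44) and Akt1s1 fell (-0.49).

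Ribosomal protein genes have many processed pseudogene copies, and RSEM divides reads that map to several genes. Of the 80 genes, 59 had a pseudogene row named after them, and 14 had a count that was not whole in some library. Pseudogene rows held at most 20.2% of the counts of a gene and its copies (Rpl36a), and over 10% for 15 genes, Rps23 (16.6%), Rpl17 (11.8%) and Rpl15 (11.8%) among them. Rps23, Rpl17 and Rpl15 had a non-whole count in 0 libraries. Whether the division of reads changed the levels of any of these genes was not tested. The 127 pseudogene rows tested gave 2 higher and 108 lower in EV against parental cells (median -1.06 with TMM, -0.47 in TPM), against 28.9% and 29% of all genes.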

How the data were processed

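RNA of 21 libraries (polyA-selected, stranded, per the labels' protocols) was quantified by the authors. The deposited expected counts are gene counts estimated by RSEM, not scaled. The deposited TPM and FPKM are scaled by the authors for effective length and library size. Per the submitters' processing notes, the tools included STAR 2.7.1a and RSEM, with Trim Galore and GATK 4.1.2.0, on build mm10; their order is not given in the sources used here.

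Groups and replicate numbers came from sample titles. Expected counts were rounded and tested with edgeR 4.0.16 in R 4.3.3 (TMM, filter on low counts, quasi-likelihood F-test, all 21 libraries, 14 residual degrees of freedom), with Benjamini-Hochberg adjustment over 15432 genes and a threshold of 0.05. Effective lengths were derived from counts and FPKM of at least 0.5. Alternatives were DESeq2 1.42.0, limma 3.58.1 on TPM with pseudocounts of 1 and 0.1, other scalings and filters, a replicate block and leaving out each library. The tests were also run on simulated counts, with the same relative spread for all genes and groups and changes in the ZBTB18-overexpressing group only. That setting lacks the uneven spread of the real groups, so it cannot check the comparisons with parental cells or M11. CPM are after TMM scaling.

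Same-numbered samples deviated together in M11 with M12 (correlations of 0.229, 0.481 and 0.326) and in TGF-β1 with vehicle (0.52, 0.289 and 0.592). Only there were the numbers read as pairing samples. The main tests did not use this pairing in any comparison. The replicate block was an alternative that applied the numbers to all 21 libraries.

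Genes named were the 3 highest and lowest called per comparison, the 4 highest and lowest by TPM, the 4 smallest p of the 7-group test, paralogs, stalk genes, Rpsa, and the 4 most and least variable within the module; others were chosen after their values were seen. The values of 1 gene are not reported here. Members and lists were chosen with earlier results of these data known.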

Additional observations from a re-analysis of the deposited data

How the results depend on the processing

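In EV, M11 and M12 against parental, M11 against M12 and vehicle against overexpression, the module median kept its sign under all alternatives run. On log2(TPM + 1) the M11 against parental calls were 3 higher and 14 lower (median -0.118), those of M12 3 higher and 26 lower (median -0.158), those of EV 6 higher (median -0.332), and M11 was lower than M12 in 6 genes. With a pseudocount of 0.1 these were 3 and 14 (-0.118), 3 and 27 (-0.158), 6 (-0.333) and 6. Rescaled TPM gave 32 lower in M11 and 1 lower with vehicle. With library totals alone, 24 fell in M11, 45 in M12, and 4 were lower in M11 than M12. The main test takes each gene's spread from all 21 libraries, although spread differed between groups. Rpl19, for example, had an SD of 305 CPM in parental libraries and 37.8 CPM in vehicle libraries. The 6 libraries of a comparison alone, with their own spread and scaling, gave 12 lower in M11, 38 lower in M12 and 0 lower in M11 than M12. They gave 50 higher with vehicle, and 2 higher and 11 lower with ZBTB18 overexpression. Without a filter, 8 fell with overexpression, 35 rose and 1 fell with vehicle, and 4 were lower in M11 than M12; DESeq2 also gave 4 there. Effective length offsets, chosen after seeing the data, left 1 lower with vehicle. The cause of these changes was not tested.

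With the replicate block, 4 genes were lower in M11 than M12 and 36 rose with vehicle against overexpression, a comparison whose numbers do not pair the samples; no other count moved by over 1.5 times. Leaving out 1 library at a time gave 22 to 68 lower in M11, 6 to 20 higher and 2 to 4 lower in M11 than M12, 8 to 24 higher and 0 to 2 lower with vehicle, and 0 to 1 higher and 1 to 5 lower with overexpression.

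As percent of TPM in place of counts, the module's mean share was 23.9 in parental, 19.3 in EV, 18.6 with overexpression, 21.3 with vehicle, 20.9 with TGF-β1, 21.6 in M11 and 20.3 in M12. Each of the 77 genes had at least 2383 counts per library.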
